A study of Homo sapiens with 12 samples.

Results

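The genes described here encode the heat shock proteins HSP90, HSP70, HSP110 and HSPB1, the J-domain proteins, the TRiC/CCT chaperonin, and the cochaperones and transcription factors that work with them. They were chosen by gene symbol in the count tables of both lines, and 4 matching endoplasmic reticulum chaperones in each table, as well as 16 pseudogenes in MEC1 and 4 in JVM2, were left out. This gave 91 genes of the 23533 in the tables, of which 91 were listed for MEC1 and 85 for JVM2. The selection is mostly but not wholly cytosolic. Among others, HSPA9, HSPD1, HSPE1, DNAJC11, DNAJC15 and DNAJC19 act in mitochondria, and HSPA13, DNAJC1, DNAJC10, DNAJB12 and DNAJB14 belong to the endoplasmic reticulum. HSPB11, HSF2BP and HSPBAP1 met the rule by name alone. It also took in the noncoding genes DNAJC27-AS1, DNAJC3-AS1 (named DNAJC3-DT in GENCODE 44) and DNAJC9-AS1 and the readthrough gene HSPE1-MOB4.

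Chaperones bind unfolded or unstable proteins and help them to fold, assemble or be degraded. HSP70 takes up clients delivered by J-domain proteins, exchange factors such as HSPH1 and BAG3 release them, and STIP1 hands a subset on to HSP90, which holds kinases and steroid receptors in a state that can be activated. When unfolded protein builds up, heat shock factor 1 (HSF1) is freed from HSP70 and HSP90 and binds heat shock elements, repeats of a GAA unit in alternating orientation, in the promoters of many of these genes.

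RNA sequencing compared cells with high and low UGT2B17, an enzyme that glucuronidates steroids, in 2 established human lines of neoplastic B cells, MEC1 and JVM2, with 3 biological replicates in each of 4 populations. MEC1-2B17 and JVM2-2B17 stably carried the UGT2B17 coding sequence in pcDNA6 and were kept in blasticidin. JVM2-CTRL carried the empty pcDNA6 vector under the same antibiotic, whereas MEC1-CTRL had a stable shRNA knock-down of UGT2B17 and was kept in puromycin, so that UGT2B17, the construct and the antibiotic cannot be told apart in MEC1. All 4 were stable populations kept under selection, and p-values measure the spread between replicates of such a population. In JVM2 too, UGT2B17 therefore cannot be told apart from any other difference between the separately selected populations.

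UGT2B17 was at 10.4 to 11.8 counts per 1000000 (CPM) in MEC1-CTRL and 20.1 to 22.7 in MEC1-2B17, and at 26.2 to 29.8 in JVM2-CTRL and 35.3 to 45.3 in JVM2-2B17. The 6 B-cell markers summed to 1250 to 2300 CPM in every library, against at most 0.639 CPM for T-cell markers and 1.7 for monocyte markers, and the epithelial markers summed to 26.4 to 30.0 CPM in MEC1-CTRL and 45.8 to 48.9 in MEC1-2B17, whose part in the results was not tested. Libraries held 31762649 to 37744991 counts in MEC1 and 8809179 to 11231330 in JVM2, with biological coefficients of variation of 4.22% and 6.92%. The lines were sequenced at different depth, on 2 sites that were not assigned to samples in the sources used here, so that levels are compared between arms of a line. In bulk RNA, fewer cells with a transcript and less of it per cell cannot be told apart.

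Heat shock elements were located in the RefSeq promoters (GRCh38.p14, 250 bases before to 50 after each start) of the 81 genes that could be matched, since they are the sequence feature through which these genes are known to be controlled. The element of 3 units was searched as GAANNTTCNNGAA and its reverse complement TTCNNGAANNTTC, on both strands. It was found in 8 of the 81 genes (9.88%), against 0.608% of all 27305 genes with a promoter in the table. The stretches around it are given below 5′ to 3′ on the strand of the gene, with the bases of overlapping elements in capitals, for the genes whose values are described further on.
HSP90AA1, chr14:102087095-102087157, minus strand: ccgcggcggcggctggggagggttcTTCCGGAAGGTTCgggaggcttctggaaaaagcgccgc
HSP90AB1, chr6:44247806-44247868, plus strand: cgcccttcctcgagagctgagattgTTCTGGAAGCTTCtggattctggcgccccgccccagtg
HSPA8, chr11:123062154-123062216, minus strand: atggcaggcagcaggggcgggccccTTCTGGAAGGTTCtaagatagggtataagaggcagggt
HSPA6, chr1:161524441-161524503, plus strand: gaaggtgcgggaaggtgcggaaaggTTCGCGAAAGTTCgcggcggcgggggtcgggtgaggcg
HSPD1, chr2:197500043-197500090, minus strand: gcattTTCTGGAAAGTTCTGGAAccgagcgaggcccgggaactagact
CHORDC1, chr11:90223062-90223134, minus strand: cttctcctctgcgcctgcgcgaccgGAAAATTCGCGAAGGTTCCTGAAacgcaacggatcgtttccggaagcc
DNAJA1, chr9:33025251-33025313, plus strand: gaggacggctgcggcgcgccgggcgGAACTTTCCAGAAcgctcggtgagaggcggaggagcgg

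The 8th gene with this element was DNAJB6, and HSP90AB1 and HSPA8 each held a further one in the same window. A match describes the letters of the window and is not a measured binding site. The shorter element of 2 units, GAANNTTC or TTCNNGAA, each its own reverse complement and part of every 3-unit match, stood in 26 of the 81 genes (32.1%) and in 16.2% of all genes.

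In JVM2, 21 of the 80 chaperone genes tested fell from CTRL to 2B17 cells (26.2%, against 15.3% of the 13021 genes tested) and 6 rose (7.5%, against 14.1%). The 27 changed genes were 33.8% of those tested, against 29.3% of all genes, and the median log2 fold change was -0.08, against 0.00 over all genes. In MEC1, 20 of 85 fell (23.5%, against 21.6% of 16581 genes) and 14 rose (16.5%, against 20.0%). The 34 changed genes were 40.0% of those tested, against 41.7%, and the median was -0.01, against 0.00. The chaperone genes as a whole thus moved about as often as other genes in MEC1, and in JVM2 more of them fell and fewer rose than among other genes. With DESeq2, 18 of them changed in JVM2 (22.5%, against 22.8% of all genes), of which 16 fell (20.0%, against 12.2%) and 2 rose, and 28 changed in MEC1 (32.9%, against 35.0%), of which 18 fell and 10 rose. Calls over all genes became fewer when any JVM2 library but JVM2-2B17 replicate 2 was left out. Without JVM2-2B17 replicate 2 they became more, and 32 chaperone genes were changed (40.0%, against 34.1% of all genes). Of these, 26 fell (32.5%, against 17.8%). Without JVM2-CTRL replicate 3, 16 chaperone genes were changed in JVM2 (20.0%, against 20.2% of all genes), of which 13 fell (16.2%, against 10.6%), and the calls of AHSA1, DNAJA1, DNAJA3, DNAJC11, DNAJC16, HSPA14, HSPA1L, HSPA9, HSPB1, HSPD1 and TCP1 were lost.

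A library that stood apart among the MEC1 controls touches several of the values below. In MEC1-CTRL replicate 3, 15 of 85 chaperone genes (17.6%) were more than 0.2 on the log2 scale above the mean of the other 2 control replicates, against 6.52% of all genes. HSPA8 was highest among the abundant ones, by 0.50, followed by DNAJA1 by 0.43, HSPH1 by 0.37, FKBP4 and AHSA1 by 0.33 and HSP90AA1 by 0.29. JVM2-2B17 replicate 2 also varied more than the others, with an SD over all genes of 0.285 on the log2 scale from the other 2 replicates of its arm, against 0.187 to 0.229 in the other JVM2 libraries.

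Of the 9 genes for HSP90 and its cochaperones, 4 fell in MEC1 (44.4%, against 21.6% of all genes) and 1 rose (11.1%, against 20.0%). In JVM2, 5 fell (55.6%, against 15.3%) and 1 rose (11.1%, against 14.1%). With DESeq2, 4 fell in each line, against 18.2% of all genes in MEC1 and 12.2% in JVM2. The median log2 fold changes of the 9 genes were -0.11 in MEC1 and -0.17 in JVM2. HSP90AA1, the inducible cytosolic HSP90, fell in both lines. It was at 665, 691 and 827 CPM in MEC1-CTRL and at 534, 512 and 521 CPM in MEC1-2B17, or -0.48 ± 0.06 as log2 fold change and SE (adjusted p = 1.04e-06 by edgeR's quasi-likelihood test with Benjamini-Hochberg adjustment, as for all adjusted p-values that follow unless another tool is named). In JVM2 it went from 1227, 1194 and 1308 CPM to 947, 969 and 976 CPM, by -0.37 ± 0.05 (adjusted p = 0.000218). All control libraries lay above all 2B17 libraries of the same line. Without MEC1-CTRL replicate 3 the MEC1 value was -0.38 (adjusted p = 2.26e-08). HSP90AB1, its constitutive counterpart, moved differently. It rose slightly in MEC1, from 2023, 2004 and 2152 CPM to 2219.8, 2199 and 2187 CPM (0.10 ± 0.03, adjusted p = 0.00966), a call lost with edgeR's exact test (adjusted p = 0.148) and without MEC1-CTRL replicate 2 (adjusted p = 0.0881). In JVM2 its 1577, 1471 and 1513 CPM in controls stood above the 1382, 1425 and 1346 CPM in 2B17 cells, and the difference of -0.14 ± 0.05 did not pass the threshold (adjusted p = 0.0628). The difference between the lines was 0.24 ± 0.06 (adjusted p = 0.00344). Up to 13.8% of the 50-base stretches of HSP90AB1 occur in the pseudogene HSP90AB3P and 8.19% of those of HSP90AA1 in HSP90AA2P, so some of their reads could have been assigned elsewhere.

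Per kilobase of exon, HSP90AA1 thus made up less of the cytosolic HSP90 transcripts in 2B17 cells. The ratio of HSP90AA1 to HSP90AB1 was 0.192, 0.202 and 0.225 in MEC1-CTRL and 0.141, 0.136 and 0.139 in MEC1-2B17. In JVM2 it was 0.455, 0.475 and 0.505 in controls and 0.401, 0.398 and 0.424 in 2B17 cells. The arms did not overlap in either line, and the exact two-sided permutation test gave p = 0.1 in each, the smallest that 3 against 3 libraries allow.

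FKBP4, the immunophilin cochaperone that promotes steroid receptor activity, fell in both lines. In MEC1 it went from 156, 159 and 198 CPM to 139, 134 and 138 CPM (-0.32 ± 0.06, adjusted p = 0.000463), and the change was -0.20 without MEC1-CTRL replicate 3, still past the threshold (adjusted p = 0.000149). In JVM2 the fall was from 196, 190.2 and 188 CPM to 138, 138 and 127 CPM (-0.51 ± 0.06, adjusted p = 3.77e-05), with no overlap between the arms. FKBP5, the related immunophilin that restrains the same receptors and is itself induced by glucocorticoids, went the other way in JVM2 and did not pass the threshold in MEC1. It stood at 98.8, 99.7 and 96.9 CPM in JVM2-CTRL and at 136, 138 and 138 CPM in JVM2-2B17 (0.48 ± 0.05, adjusted p = 3.36e-05). In MEC1 the levels were 133, 126 and 128 CPM in controls and 129.6, 131 and 119 CPM in 2B17 cells (-0.03 ± 0.04, adjusted p = 0.537). The change of FKBP5 differed between the lines by -0.51 ± 0.07 (adjusted p = 1.18e-05). The ratio of FKBP5 to FKBP4 per kilobase was 0.245 to 0.255 in JVM2-CTRL and 0.48 to 0.526 in JVM2-2B17, and 0.314 to 0.415 in MEC1-CTRL and 0.418 to 0.472 in MEC1-2B17 (exact permutation p = 0.1 in each line). In MEC1 the log2 of this ratio between the arms was 0.27, and 0.16 without MEC1-CTRL replicate 3, which had the lowest value.

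AHSA1, which stimulates the ATPase of HSP90, also fell in both lines. Its levels were 94.5, 101 and 123 CPM in MEC1-CTRL and 86.3, 88.3 and 84.1 CPM in MEC1-2B17 (-0.30 ± 0.06, adjusted p = 0.0009, and -0.18 without MEC1-CTRL replicate 3). In JVM2 they were 173, 168 and 175 CPM against 153, 149 and 155 CPM (-0.17 ± 0.06, adjusted p = 0.0323), a call that DESeq2 did not make (adjusted p = 0.0745) and that was lost when any library but JVM2-2B17 replicate 2 was left out (highest adjusted p = 0.142). CDC37, which loads kinases onto HSP90, fell in MEC1 from 183, 187 and 194 CPM to 160.2, 151 and 156 CPM (-0.27 ± 0.04, adjusted p = 1e-05). In JVM2 it stood at 189.5, 186 and 186 CPM in controls and at 184, 173 and 180.1 CPM in 2B17 cells (-0.06 ± 0.06, adjusted p = 0.444). The lines differed in this by -0.20 ± 0.07 (adjusted p = 0.0225).

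STIP1 and CHORDC1 fell in JVM2 and, with all libraries, did not pass the threshold in MEC1. STIP1 went from 307, 301 and 304 CPM to 256, 255 and 242 CPM in JVM2 (-0.28 ± 0.05, adjusted p = 0.00171). In MEC1 it was at 210.1, 214 and 253 CPM against 206, 209 and 210.1 CPM (-0.11 ± 0.05, adjusted p = 0.0919). This value rested on single controls, being -0.03 without MEC1-CTRL replicate 3, and past the threshold without replicate 1 (-0.17, adjusted p = 0.0137) or 2 (-0.15, adjusted p = 0.046). The difference of STIP1 between the lines did not pass the threshold (0.17 ± 0.08, adjusted p = 0.133). In JVM2, the 197 other genes tested within 5 Mb of STIP1, chaperones left out, had a median of -0.10, with 40 lower and 14 higher. Whether position had a part was not tested. CHORDC1, an HSP90 cochaperone with zinc-binding CHORD domains, had the cluster of overlapping elements printed above. It went from 70.3, 72.01 and 72.7 CPM to 53.8, 57.3 and 56.0 CPM in JVM2 (-0.36 ± 0.06, adjusted p = 0.000765). In MEC1 its 57.5, 60.6 and 67.5 CPM in controls overlapped the 59.1, 66.0 and 61.4 CPM of 2B17 cells (0.01 ± 0.05, adjusted p = 0.924), and this gene did differ between the lines (0.38 ± 0.09, adjusted p = 0.00225). PTGES3, the p23 cochaperone that acts late in the HSP90 cycle, passed in neither line, with values of -0.04 ± 0.03 in MEC1 and -0.06 ± 0.07 in JVM2.

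**Figure D1:**
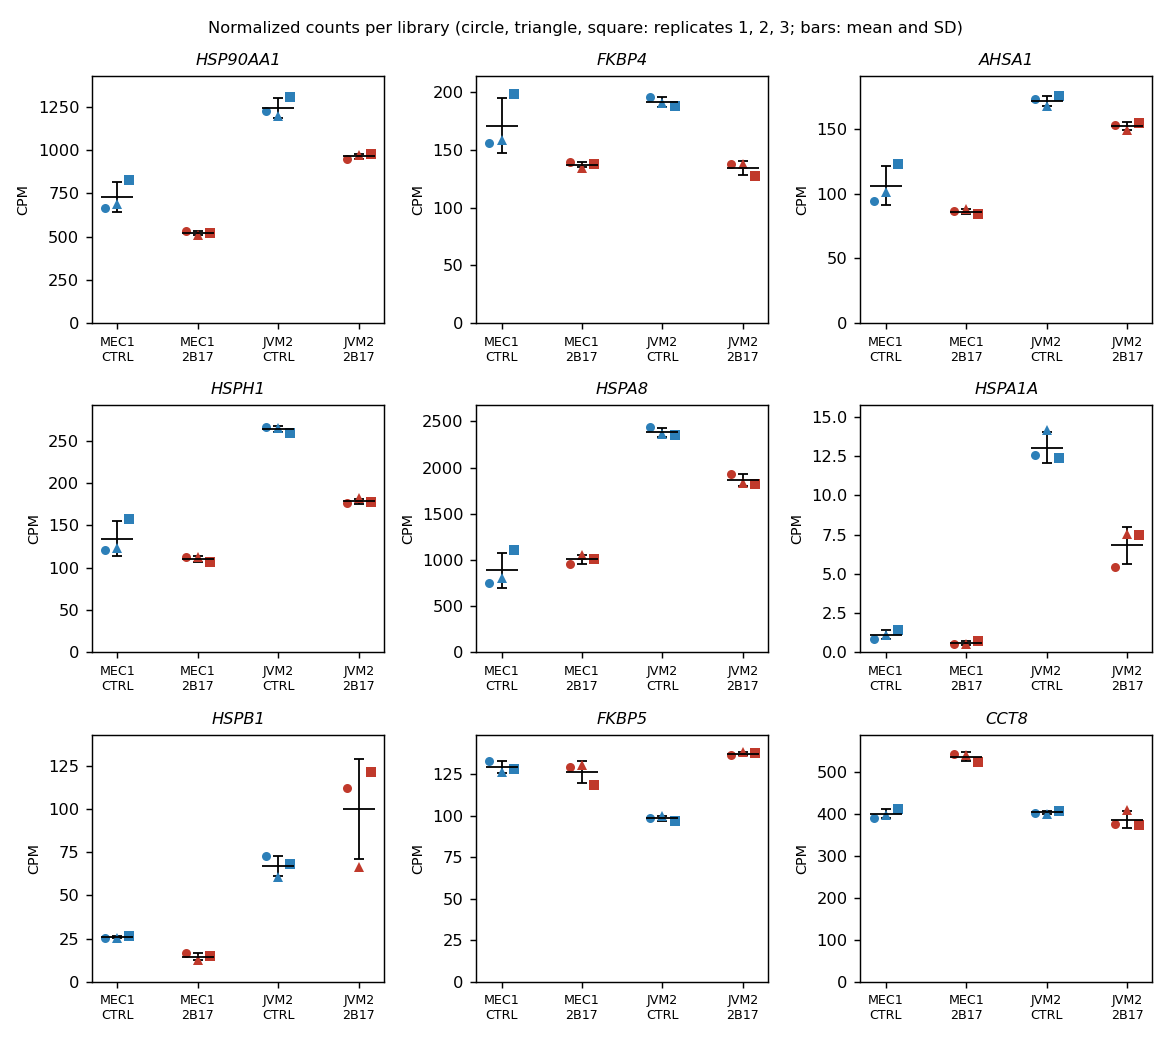
TMM-scaled counts per 1000000 (CPM) of 9 chaperone genes in the 12 libraries, with 1 panel per gene, replicates as points, and the mean and SD of 3 replicates as bars, on axes that start at 0. The means of HSP90AA1, FKBP4, AHSA1, HSPH1 and HSPA1A lay lower in the 2B17 cells of both lines, while HSPA8 lay lower in JVM2-2B17, HSPB1 lower in MEC1-2B17, FKBP5 higher in JVM2-2B17 and CCT8 higher in MEC1-2B17.

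Among the HSP70 and HSP110 genes, 6 of 11 fell in JVM2 (54.5%, against 15.3% of all genes) and 1 rose, with a median of -0.36. In MEC1, 4 of 12 fell (33.3%, against 21.6%) and 1 rose, with a median of -0.01. With DESeq2, 4 of 11 fell in JVM2 (against 12.2% of all genes) and 3 of 12 in MEC1 (against 18.2%). Leaving out each JVM2 library in turn gave 4 to 6 lower genes in JVM2, against 10.6% to 17.8% of all genes. HSPA8, the constitutive HSP70 and the most abundant gene of this group per kilobase in JVM2, was at 2438, 2359 and 2354 CPM in JVM2-CTRL and at 1936, 1830.2 and 1821 CPM in JVM2-2B17 (-0.36 ± 0.05, adjusted p = 0.000144). Every control library was above every 2B17 library. In MEC1 the controls were at 755, 805 and 1103 CPM and the 2B17 cells at 959, 1053 and 1009 CPM (0.18 ± 0.09, adjusted p = 0.105). The single high control was replicate 3, and without it the value was 0.37, past the threshold (adjusted p = 4.23e-07). HSPA8 differed between the lines by 0.54 ± 0.12 with all libraries (adjusted p = 0.00183).

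HSPH1, the HSP110 that exchanges nucleotide on HSP70, fell in both lines. In JVM2 it went from 267, 265 and 259.7 CPM to 176, 182 and 177 CPM (-0.56 ± 0.05, adjusted p = 6.09e-06). In MEC1 it went from 121, 124 and 158 CPM to 113, 112 and 107 CPM (-0.28 ± 0.07, adjusted p = 0.00262). The MEC1 value was -0.15 without MEC1-CTRL replicate 3 (adjusted p = 0.0045), and DESeq2 did not call it with all libraries (adjusted p = 0.0833). The fall was greater in JVM2 by 0.29 ± 0.10 (adjusted p = 0.0347).

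The stress-inducible HSP70 genes HSPA1A and HSPA1B lie side by side on chromosome 6 and share 73.7% of the 50-base stretches of HSPA1A. Reads from the shared part could have been assigned to either gene or left uncounted. In JVM2 both fell, HSPA1A from 12.6, 14.2 and 12.4 CPM to 5.44, 7.54 and 7.47 CPM (-0.95 ± 0.14, adjusted p = 0.00033) and HSPA1B from 16.6, 22.6 and 22.2 CPM to 14.05, 14.2 and 11.99 CPM (-0.61 ± 0.13, adjusted p = 0.00418). Their sum does not depend on how reads were divided between HSPA1A and HSPA1B, but would miss reads left uncounted. This sum was 29.2, 36.8 and 34.6 CPM in controls and 19.5, 21.7 and 19.5 CPM in 2B17 cells (exact permutation p = 0.1, the smallest possible). In MEC1 HSPA1A was called lower, from 33, 38 and 48 counts to 18, 17 and 23 counts (-0.93 ± 0.25, adjusted p = 0.0054). HSPA1B did not pass there, with 5.08, 5.49 and 7.05 CPM in controls and 6.72, 6.31 and 5.77 CPM in 2B17 cells (0.10 ± 0.11, adjusted p = 0.518, and 0.25 with adjusted p = 0.0755 without MEC1-CTRL replicate 3). The MEC1 sum of both was 5.94, 6.59 and 8.49 CPM against 7.26, 6.83 and 6.5 CPM, with overlapping arms (exact permutation p = 0.9), and the log2 difference of -0.03 was 0.13 without MEC1-CTRL replicate 3.

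Lesser members of the family followed no single direction. HSPA6, a strictly inducible HSP70, fell in MEC1 from 3.68, 3.63 and 3.61 CPM to 2.81, 2.42 and 2.52 CPM (-0.49 ± 0.12, adjusted p = 0.00272). It shares 45.8% of its stretches with the pseudogene HSPA7, which also fell (-1.12 ± 0.08, adjusted p = 2.35e-09), and it was too low to test in JVM2, at 0.113 to 0.498 CPM. HSPA4L, an HSP110 relative, fell in MEC1 (-0.37 ± 0.04, adjusted p = 4.05e-07) and HSPA13 of the endoplasmic reticulum rose there (0.35 ± 0.04, adjusted p = 2.27e-06). In JVM2, HSPA1L fell by 0.57 on the log2 scale (adjusted p = 0.0382), mitochondrial HSPA9 fell by 0.16 (adjusted p = 0.0346), and HSPA14 of the ribosome-associated complex rose by 0.18 (adjusted p = 0.0461). None of these 3 JVM2 genes was called by DESeq2, and each lost its call in 5 of the 6 fits that left out 1 library.

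Of the 7 exchange factors and HSP70-binding proteins, BAG3 was the only one called in JVM2 (14.3%, against 29.3% of all genes). BAG3, which links HSP70 to selective autophagy and is itself a stress-induced gene, went from 17.4, 18.003 and 18.6 CPM to 10.9, 9.91 and 11.1 CPM in JVM2 (-0.76 ± 0.10, adjusted p = 0.000136). In MEC1 it went from 13.2, 13.6 and 13.01 CPM to 11.8, 11.3 and 12.1 CPM (-0.18 ± 0.07, adjusted p = 0.0385), a call lost with DESeq2 (adjusted p = 0.122) and when any library but MEC1-CTRL replicate 3 was left out (highest adjusted p = 0.128). The fall was greater in JVM2 by 0.59 ± 0.11 (adjusted p = 0.000393). In MEC1, BAG6, which guards membrane proteins on their way to the endoplasmic reticulum, rose from 122, 123 and 124 CPM to 131, 133 and 140.2 CPM (0.13 ± 0.03, adjusted p = 0.00346).

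**Figure D2:**
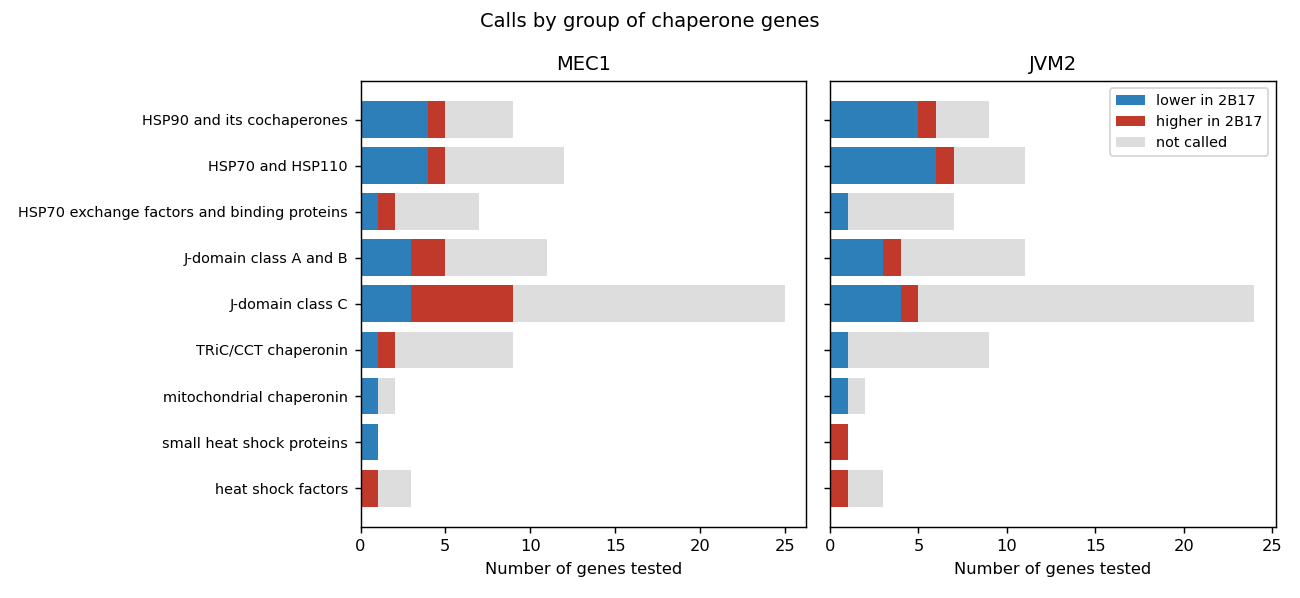
Number of tested genes in each group of chaperones that were lower, higher or not called in 2B17 cells at an adjusted p below 0.05 in MEC1 and JVM2. In JVM2, 6 of 11 HSP70 and HSP110 genes and 5 of 9 genes for HSP90 and its cochaperones were lower, against 4 of 12 and 4 of 9 in MEC1. Over all genes tested, 15.3% were lower in JVM2 and 21.6% in MEC1.

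Of all genes, 21.6% fell in MEC1 and 15.3% in JVM2. Among the J-domain proteins of classes A and B, 3 of 11 fell in each line (27.3%), with no gene in common. In JVM2 these were DNAJA1, DNAJA4 and DNAJB1. DNAJB1, the main stress-inducible partner of HSP70, went from 69.1, 61.5 and 65.7 CPM to 54.3, 51.9 and 54.4 CPM (-0.29 ± 0.07, adjusted p = 0.00692). DNAJA1, which carries the element printed above just inside its transcribed region, went from 311, 310.4 and 311 CPM to 265, 287 and 250.7 CPM (-0.22 ± 0.06, adjusted p = 0.0165), a call lost when any library but JVM2-2B17 replicate 2 was left out (highest adjusted p = 0.071). DNAJA4 had the largest fall of the chaperone genes in JVM2, from 3.79, 5.60 and 4.14 CPM to 0.906, 1.80 and 0.792 CPM (-1.97 ± 0.30, adjusted p = 0.000354). This JVM2 value rests on low counts, and its call was lost under the filter that asked for 10 counts in every library. In MEC1, DNAJA4 stood at 6.60, 5.93 and 7.59 CPM against 6.55, 8.33 and 6.66 CPM, and the lines differed by 2.08 ± 0.34 (adjusted p = 7.08e-05).

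In MEC1 the class A and B genes that fell were DNAJB4, DNAJB12 and DNAJB14, the last 2 of which are anchored in the endoplasmic reticulum membrane, by 0.34, 0.15 and 0.18 on the log2 scale. DNAJA2 and DNAJB5 rose there, by 0.20 and 0.25. The call of DNAJB12 was lost without MEC1-CTRL replicate 1 or MEC1-2B17 replicate 3, and that of DNAJB5 with DESeq2 (adjusted p = 0.105) and without either of these or MEC1-2B17 replicate 1. DNAJB1 was at 24.0, 27.0 and 29.9 CPM in MEC1-CTRL and at 28.4, 27.7 and 29.6 CPM in MEC1-2B17 and did not pass (0.08 ± 0.07, adjusted p = 0.338). Without MEC1-CTRL replicate 3, DNAJB1 was called higher (0.16, adjusted p = 0.0399), as was DNAJA1 (0.25, adjusted p = 5.76e-05).

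The class C J-domain proteins serve specialised tasks. In MEC1, 6 of 25 rose (24.0%, against 20.0% of all genes) and 3 of 25 fell, where 21.6% of all genes did. In JVM2, 1 of 24 rose (4.17%, against 14.1%) and 4 fell (16.7%, against 15.3%). DNAJC6, the auxilin that uncoats clathrin vesicles, was called in both lines in opposite directions. It rose in MEC1 from 11.2, 11.8 and 10.4 CPM to 13.9, 15.1 and 14.2 CPM (0.37 ± 0.07, adjusted p = 0.000291). It fell in JVM2 from 31.0, 31.3 and 32.7 CPM to 16.9, 23.0 and 21.5 CPM (-0.64 ± 0.11, adjusted p = 0.000762). No library overlapped with the other arm in either line, and the interaction was 1.02 ± 0.13 (adjusted p = 2.5e-06). DNAJC12, a cochaperone of the aromatic amino acid hydroxylases, had the largest rise in JVM2, from 2.39, 1.96 and 1.27 CPM to 4.99, 4.28 and 3.85 CPM (1.22 ± 0.24, adjusted p = 0.00223), and lay below 1 CPM in each MEC1 library.

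The other class C genes that rose in MEC1 were DNAJC2, DNAJC4, DNAJC10, DNAJC24 and DNAJC30, by 0.16 to 0.28 on the log2 scale, and those that fell were DNAJC5, DNAJC8 and DNAJC9, by 0.12 to 0.17. DESeq2 called neither DNAJC4 (adjusted p = 0.0681) nor DNAJC30 (adjusted p = 0.0955), both of which lost their call in 5 of the 6 fits that left out 1 library, and DNAJC5 lost its call without MEC1-2B17 replicate 2 or 3. In JVM2, mitochondrial DNAJC11 and DNAJC15 fell by 0.18 and 0.30, and DNAJC16 by 0.25. Other genes tested within 5 Mb, chaperones left out, had a median of -0.12 around DNAJC11, with 19 of 73 lower and 5 higher. Around DNAJC16 the median was -0.16, with 21 of 63 lower and 6 higher, and around DNAJC15 it was -0.03. Whether position had a part in these changes was not tested. DESeq2 called neither DNAJC11 (adjusted p = 0.149) nor DNAJC16 (adjusted p = 0.106), both were lost when any single JVM2 control was left out and in 1 fit without a 2B17 library, and DNAJC15 was lost without JVM2-CTRL replicate 1. The noncoding genes DNAJC27-AS1 (-0.94 ± 0.18, adjusted p = 0.0004) and DNAJC3-AS1 (-0.26 ± 0.07, adjusted p = 0.00339) were lower in MEC1-2B17. The sources used here do not say whether counting used strand, so reads of either may belong to any gene that overlaps it.

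The TRiC/CCT chaperonin, which folds actin and tubulin in a ring of related subunits, changed little as a whole. Of 9 genes tested, 7 were not called in MEC1 and 8 were not called in JVM2. The called ones were 22.2% in MEC1, against 41.7% of all genes, and 11.1% in JVM2, against 29.3%. CCT8 rose in MEC1 from 390.2, 398 and 411 CPM to 544, 541 and 524 CPM (0.42 ± 0.03, adjusted p = 6.05e-09), while CCT7 fell from 475, 477 and 499 CPM to 415, 396 and 406 CPM (-0.25 ± 0.03, adjusted p = 6.68e-06). The other ring subunits in MEC1 (CCT2, CCT3, CCT4, CCT5, CCT6A and TCP1) lay between -0.04 and 0.09. TCP1, the founding subunit, fell in JVM2 from 368, 359 and 366 CPM to 308, 331 and 300.2 CPM (-0.22 ± 0.06, adjusted p = 0.0102). In MEC1, TCP1 was at 174, 179 and 200.1 CPM against 199.8, 195 and 192 CPM (adjusted p = 0.143) and was called higher without MEC1-CTRL replicate 3 (0.15, adjusted p = 0.00203). Both CCT8 (0.49 ± 0.07, adjusted p = 6.86e-06) and TCP1 (0.31 ± 0.08, adjusted p = 0.00394) differed between the lines.

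The mitochondrial chaperonin HSPD1 and its lid HSPE1, which are transcribed from a shared promoter region in opposite directions, were, with all libraries, each called in a different line. HSPD1 fell in JVM2 from 905, 937 and 927 CPM to 795, 863 and 759 CPM (-0.20 ± 0.06, adjusted p = 0.0222), and in MEC1 it stood at 1187, 1231 and 1296 CPM against 1252, 1259.6 and 1212 CPM (0.00 ± 0.03). The JVM2 call of HSPD1 was lost when JVM2-CTRL replicate 2 or 3 or JVM2-2B17 replicate 1 or 3 was left out, with adjusted p-values up to 0.095. HSPE1 fell in MEC1 from 97.4, 106 and 121 CPM to 91.0, 89.2 and 90.0 CPM (-0.26 ± 0.05, adjusted p = 0.000682, and -0.17 without MEC1-CTRL replicate 3). In JVM2, HSPE1 was at 79.6, 84.3 and 77.3 CPM against 71.3, 82.5 and 69.7 CPM (-0.11 ± 0.07, adjusted p = 0.29), and it was called lower without JVM2-2B17 replicate 2 (-0.19, adjusted p = 0.0119). The change of HSPD1 differed between the lines (0.20 ± 0.07, adjusted p = 0.0254), and that of HSPE1 did not pass (-0.14 ± 0.10, adjusted p = 0.304).

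HSPB1 was the only small heat shock protein above the filter on low counts, and it moved in opposite directions. This ATP-independent chaperone holds unfolding proteins and binds actin. In MEC1 it fell from 25.1, 25.5 and 26.3 CPM to 16.3, 12.3 and 15.0 CPM, by -0.82 ± 0.08 (adjusted p = 4.92e-08), the largest fall there among the chaperone genes that averaged at least 2 CPM. In JVM2 it was called higher, from 72.5, 60.5 and 67.9 CPM to 112, 66.7 and 121 CPM (0.58 ± 0.17, adjusted p = 0.0199). JVM2-2B17 replicate 2 lay within the range of the controls, DESeq2 did not call the JVM2 change (adjusted p = 0.114), and leaving out single libraries gave 0.43 to 0.80 with adjusted p-values up to 0.0934. Without JVM2-2B17 replicate 2 the JVM2 change was 0.80 (adjusted p = 1.53e-11). The lines differed by -1.39 ± 0.20 (adjusted p = 1.8e-05).

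Of the heat shock factors, neither HSF1 nor HSF2 passed the threshold in either line with all libraries. HSF1, the main activator of the heat shock response, was at 68.8, 71.7 and 75.2 CPM in MEC1-CTRL and 73.5, 72.8 and 78.9 CPM in MEC1-2B17 (0.06 ± 0.04, adjusted p = 0.27). In JVM2 it was at 82.4, 80.3 and 82.6 CPM against 75.4, 64.1 and 73.9 CPM, without overlap and just outside the threshold (-0.20 ± 0.07, adjusted p = 0.0503), inside which it came with edgeR's exact test (adjusted p = 0.0463), with library size only (adjusted p = 0.0392) and without JVM2-2B17 replicate 1 (adjusted p = 0.0452), and not with DESeq2 (adjusted p = 0.117). HSF2, its partner in heterotrimers, had values of -0.17 ± 0.08 in MEC1 and -0.23 ± 0.10 in JVM2 (adjusted p = 0.0725 and 0.0928). HSF2 was called lower in MEC1 without MEC1-2B17 replicate 2 (-0.24, adjusted p = 0.0172) and in JVM2 without JVM2-2B17 replicate 2 (-0.30, adjusted p = 0.0136), and was at -0.09 in MEC1 without MEC1-2B17 replicate 3. HSF4, a paralog best known from the lens, was the only chaperone-system gene that rose in both lines, from 1.24, 1.34 and 1.295 CPM to 2.61, 2.70 and 2.87 CPM in MEC1 (1.08 ± 0.15, adjusted p = 8.4e-06) and from 1.59, 1.96 and 1.91 CPM to 3.26, 3.15 and 3.51 CPM in JVM2 (0.85 ± 0.21, adjusted p = 0.00975). DESeq2 did not call it in JVM2 (adjusted p = 0.0658), and 21.3% of its 50-base stretches belong to an overlapping gene, ENSG00000265690.

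**Figure D3:**
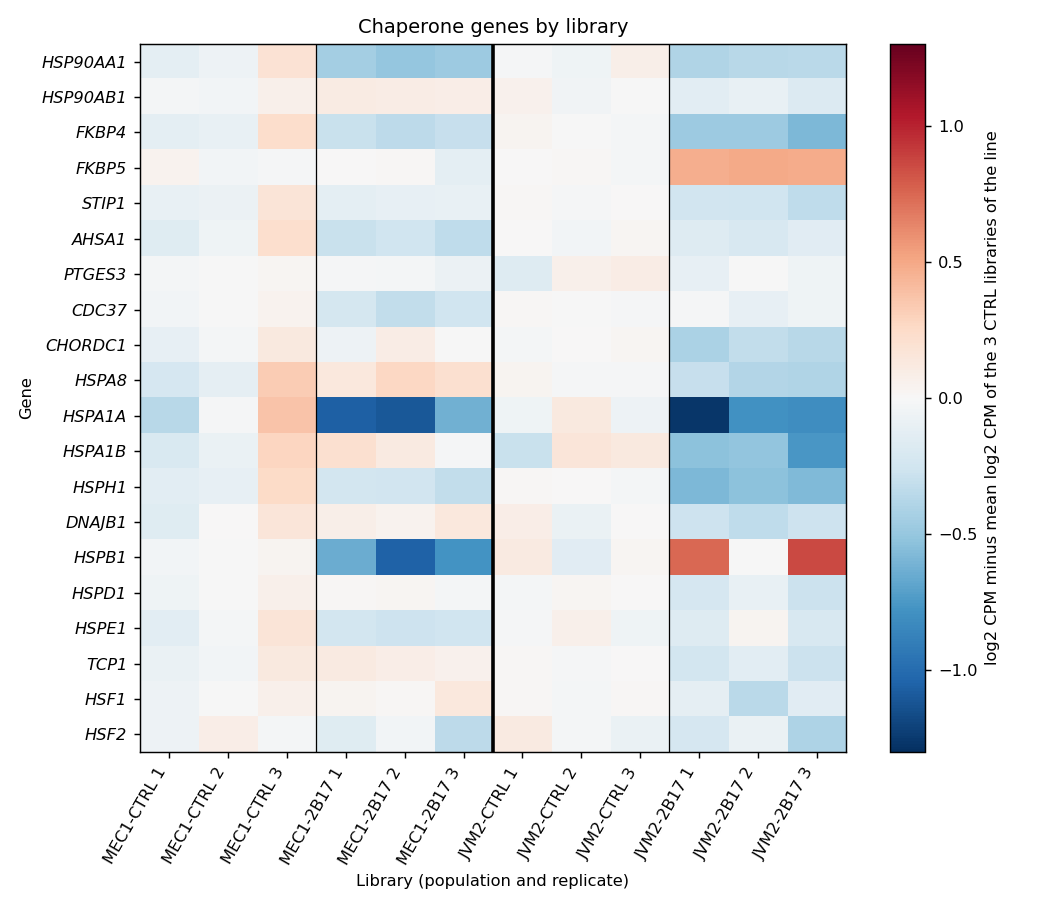
Log2 CPM of 20 chaperone genes in each of the 12 libraries, relative to the mean of the 3 CTRL libraries of the same line, with red for higher and blue for lower. MEC1-CTRL replicate 3 was redder than the other MEC1 controls for HSPA8, HSPH1, FKBP4, AHSA1, STIP1 and HSP90AA1, and the JVM2-2B17 columns were blue for most genes except FKBP5 and HSPB1.

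Taking both lines, 80 chaperone genes were tested in each. AHSA1, BAG3, FKBP4, HSP90AA1, HSPA1A and HSPH1, 6 genes (7.5%), fell in both, against 4.48% of the 12243 genes tested in both lines. HSF4 alone rose in both (1.25%, against 3.9%), and DNAJC6 and HSPB1 were called in opposite directions (2.5%, against 7.43%). With DESeq2, FKBP4, HSP90AA1 and HSPA1A, 3 of 80 (3.75%), fell in both, against 3.48% of all genes, DNAJC6 alone was called in opposite directions, and HSF4 did not pass in JVM2. The MEC1 call of HSPA1A rests on low counts. The MEC1 sum of HSPA1A and HSPA1B, which share sequence, had overlapping arms (log2 -0.03, exact permutation p = 0.9). Without MEC1-CTRL replicate 3, 7 of 80 were called in opposite directions (8.75%, against 7.65%). The lines are independent experiments without shared controls. The change differed between the lines for 30 of 85 genes (35.3%), against 32.0% of the 15130 genes tested for it. The MEC1 value was above the JVM2 value in 23 (27.1%, against 15.3% of all genes) and below it in 7 (8.24%, against 16.7%).

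**Figure D4:**
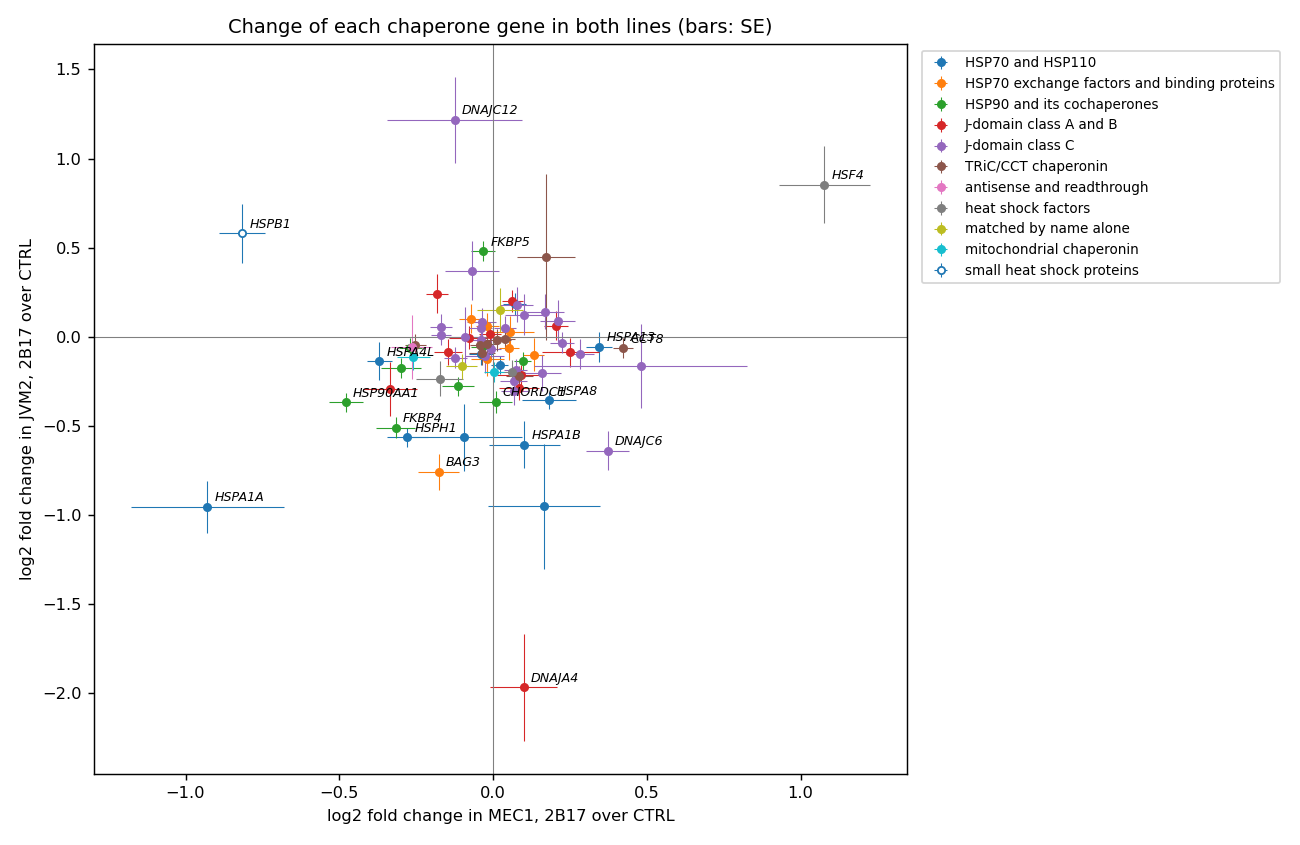
Log2 fold change of 2B17 over CTRL in MEC1 (x axis) and JVM2 (y axis) for the 80 chaperone genes tested in both lines, with SE bars and colours by group. HSPA1A, HSP90AA1, FKBP4, HSPH1 and BAG3 sit at the lower left, HSF4 at the upper right, and HSPB1, DNAJC6 and DNAJA4 apart from the diagonal.

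Most chaperone genes that fell in JVM2 had the shorter element of 2 units. This division was looked at after the fits were seen and is described here without a test. Of the chaperone genes with a 2-unit element in their promoter, 15 of 24 were lower in JVM2-2B17 (62.5%), where the median change was -0.25 (log2), against 5 of 48 (10.4%) of those without, with a median of -0.05. The matches of HSPA1A and HSPA1L are the same site read on opposite strands, and HSPA1A and HSPA1B share sequence, so these genes are not all separate observations. The 3-unit element printed above stood in 7 tested genes, of which CHORDC1, DNAJA1, HSP90AA1, HSPA8 and HSPD1 fell, while HSP90AB1 and DNAJB6 were not called. Among genes that are not chaperones, 13 of 40 with the 3-unit element were lower (32.5%) and 6 higher (15.0%), with a median of -0.17. With a 2-unit element, 208 of 1247 such genes were lower (16.7%), close to the 15.3% of all genes. Leaving out each JVM2 library in turn gave 10 to 16 lower genes among the 24 with the element and 2 to 8 among the 48 without, with both lowest counts without JVM2-CTRL replicate 3 and both highest without JVM2-2B17 replicate 2. The share of all genes lower moved with them, from 10.6% to 17.8%. AHSA1, BAG3 and HSPH1, which fell in JVM2, held neither form in the windows searched, and FKBP4 and HSF1 were among the 10 genes with no window in the table.

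In MEC1 the same division gave like shares, 6 of 25 lower with a 2-unit element (24.0%) and 13 of 51 without (25.5%), against 21.6% of all genes. Of the 8 tested genes with the 3-unit element, HSP90AA1 and HSPA6 fell and HSP90AB1 rose. Without MEC1-CTRL replicate 3, 6 of the 25 genes with a 2-unit element rose and 6 fell (24.0% each), in place of 2 and 6. Of all genes, 18.7% rose and 20.3% fell in that fit.

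**Figure D5:**
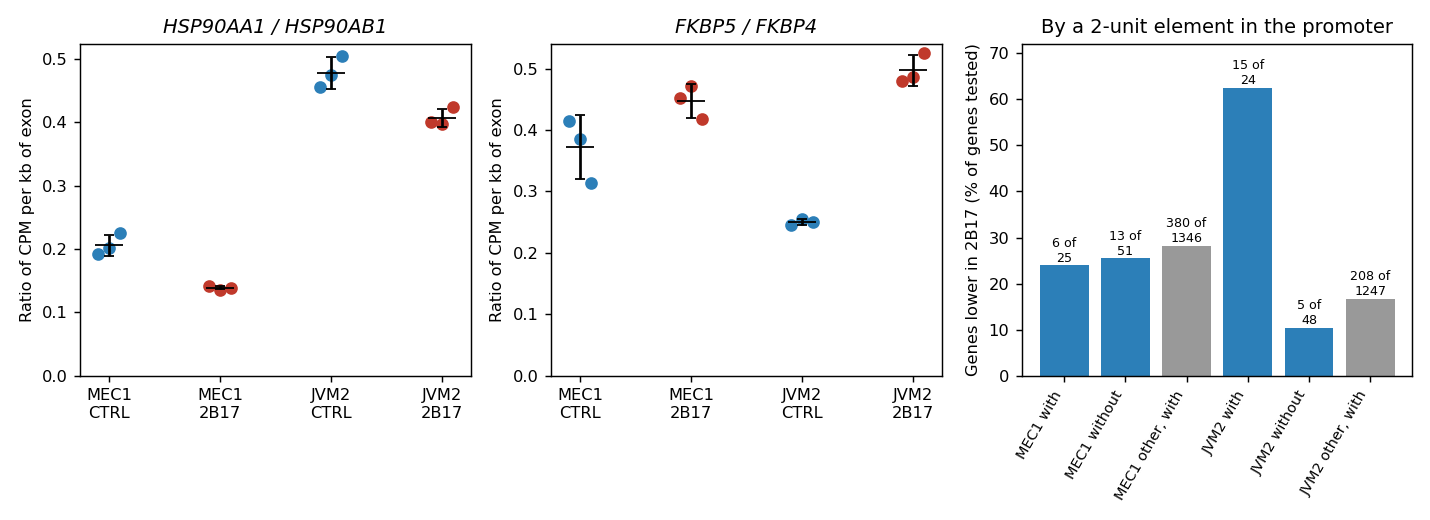
Ratios of HSP90AA1 to HSP90AB1 and of FKBP5 to FKBP4 by library, from CPM per kilobase of exon with mean and SD of 3 replicates, and the share of tested genes lower in 2B17 cells among chaperone genes with or without a 2-unit heat shock element in the promoter (blue) and among other genes with it (grey). The first ratio was lower and the second higher in 2B17 cells of both lines, and 15 of 24 chaperone genes with the element were lower in JVM2.

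Other genes of the folding network did not follow a common direction. Of 25 further cochaperones of HSP70 and HSP90, 6 rose (24.0%, against 20.0% of all genes) and 5 fell (20.0%, against 21.6%) in MEC1. In JVM2, 1 rose (4.0%, against 14.1%) and 2 fell (8.0%, against 15.3%). Their medians were 0.02 in MEC1 and -0.02 in JVM2. Of 9 prefoldin and chaperonin cofactors, 2 fell in MEC1 (22.2%, against 21.6%) and 2 rose in JVM2 (22.2%, against 14.1%). Of 7 further genes known to be induced by HSF1, SERPINH1 rose (14.3%, against 20.0%) and HMOX1 and IER5 fell (28.6%, against 21.6%) in MEC1. None of them was called in JVM2, where 29.3% of all genes were, and their median there was -0.08.

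The endoplasmic reticulum chaperones left out by the rule moved in opposite directions. In MEC1, 4 of 5 rose (80.0%, against 20.0% of all genes), among them HSP90B1 (0.68 ± 0.04, adjusted p = 2.01e-11) and DNAJB11 (0.40 ± 0.04, adjusted p = 1.8e-07), and none fell. In JVM2, 4 of 5 fell (80.0%, against 15.3%), among them HSPA5 (-0.70 ± 0.07, adjusted p = 1.88e-05) and HSP90B1 (-0.55 ± 0.05, adjusted p = 8.37e-06). In JVM2 their fall thus stood beside that of the cytosolic HSP90 and HSP70 genes, and in MEC1 they rose while HSP90AA1 fell.

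The steroid receptor clients of HSP90 and glucocorticoid-induced genes were read beside FKBP4 and FKBP5. In JVM2, NR3C1, which encodes the glucocorticoid receptor, rose by 0.36 ± 0.06 (adjusted p = 0.000411), TSC22D3 rose by 0.39 ± 0.08 (adjusted p = 0.00351) and KLF9 by 0.30 ± 0.11 (adjusted p = 0.0496), while SGK1 fell by 1.67 on the log2 scale (adjusted p = 0.000532). In MEC1, NR3C1 rose by 0.14 ± 0.03 (adjusted p = 0.00268), and TSC22D3 (-0.63 ± 0.06, adjusted p = 1.32e-07), KLF9 (-2.42 ± 0.25, adjusted p = 2.08e-07) and ESR2 (-0.74 ± 0.28, adjusted p = 0.0375) fell.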

How the data were processed

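The authors depleted ribosomal RNA, sequenced paired ends, and, per the labels' processing notes, trimmed reads (Trimmomatic), aligned them to hg38 (TopHat2 2.0.14) and counted them per gene (HTSeq). The authors deposited raw read counts of the 12 libraries, which were used as they stand. Each table lists genes with at least 10 counts over its 6 libraries. The deposited tables also hold 12 columns of normalized values and the authors' own fold changes and p-values, none of which was used.

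MEC1 and JVM2 were fitted separately, 2B17 against CTRL, with the quasi-likelihood test of edgeR 4.0.16 in R 4.3.3 after TMM scaling. Low genes were removed with filterByExpr (minimum count 10, minimum total 15). Adjustment followed Benjamini and Hochberg across every gene tested, and calls required an adjusted p below 0.05. Line differences were tested as the line-by-arm interaction over the 12 libraries. CPM are TMM-scaled, and the fits were tested on simulated data. Ratios were compared by exact permutation (SciPy 1.17.1). Positions and exon lengths came from GENCODE 44 and promoters from RefSeq. Totals per library, 31762649 to 37744991 in MEC1 and 8809179 to 11231330 in JVM2, set the precision of low genes.

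The rule for named genes covers 20 genes fixed by role, the 3 largest rises and 3 largest falls of chaperone genes in each line that averaged a log2 CPM of 1 or more without overlap of the arms, and genes called in opposite directions. Other chaperone genes were named after their values were seen. The members and gene lists were chosen with earlier results of these data known. Alternatives were DESeq2 1.42.0, edgeR's exact test, calls by both tools, RLE scaling, library size only, other filters, a replicate block, and leaving out each replicate.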

Additional observations from a re-analysis of the deposited data

Results flagged for a closer look

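The change from CTRL to 2B17 cells differed between the lines, by edgeR's test of the line-by-arm interaction with Benjamini-Hochberg adjustment, for 17 of the genes named by rule. The values that follow are the MEC1 minus the JVM2 log2 fold change. Among HSP90 genes and cochaperones the difference was 0.24 for HSP90AB1, 0.38 for CHORDC1, -0.20 for CDC37 and -0.51 for FKBP5. Among HSP70 genes and their partners it was 0.54 for HSPA8, 0.71 for HSPA1B, 0.29 for HSPH1, 0.38 for DNAJB1, 2.08 for DNAJA4, 0.59 for BAG3, 1.02 for DNAJC6 and -1.34 for DNAJC12. For the chaperonins it was 0.20 for HSPD1, 0.31 for TCP1 and 0.49 for CCT8. For HSF1 it was 0.27, although HSF1 passed the threshold in neither line. For HSPB1 it was -1.39. The part that construct, antibiotic and sequencing depth have in these differences was not tested.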

How the results depend on the processing

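With other tools, scalings and filters, 27 to 34 chaperone genes were changed in MEC1 (34 as reported), 18 to 28 in JVM2 (27 as reported) and 29 to 31 differed between the lines (30 as reported). Leaving out each replicate in turn gave 28 to 37 genes in MEC1, 16 to 32 in JVM2 and 25 to 32 for the line difference. Calls over all genes moved as well, from 35.3% to 39.0% in MEC1, where chaperone genes went from 32.9% to 43.5%, and from 20.2% to 34.1% in JVM2, where they went from 20.0% to 40.0%. The count of 16 was reached without JVM2-CTRL replicate 3. The 6 chaperone genes lower in both lines were 3 with DESeq2 and 3 with calls by both tools, and 5 to 7 with a replicate left out, a comparison added after seeing the data. With a replicate block the counts were 35, 30 and 32. Same-numbered replicates did not deviate together, with correlations of -0.0422, -0.00675 and 0.04 in MEC1 and 0.0857, 0.117 and -0.00594 in JVM2, so the numbers were not taken to pair the samples. Under the block HSPA8 (adjusted p = 0.00742), STIP1 and HSF2 were gained and BAG3 (adjusted p = 0.0509) and HSF2BP lost in MEC1, and DNAJB14, HSF1 and HSP90AB1 were gained in JVM2. Of 741 alternative values of the named genes, 690 kept their side of the threshold, 10 of them with the other sign and uncalled before and after (HSPD1, CHORDC1, FKBP5 and DNAJA4 in MEC1), 33 kept the direction but no longer passed and 18 newly passed, and no called value changed sign. The cause was not tested. JVM2 libraries were shallower, and their biological coefficient of variation was higher (6.92%, against 4.22% in MEC1). The part that depth and this spread had in the number of calls was not tested. Fold changes of HSPA1A, HSPA6 and HSF4, and of DNAJA4 and DNAJC12 in JVM2, rest on low counts.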
